A study of Mus musculus with 8 samples.

Results

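The Krüppel-like factors (KLFs) are a family of transcription factors, and 10 of their genes, Klf2, Klf3, Klf4, Klf5, Klf6, Klf7, Klf9, Klf10, Klf11 and Klf13, are described here in murine pancreatic cancer cells treated with an inhibitor of MEK. They were taken by symbol from a deposited table of 34478 genes, and all 10 had a row in it and a mean normalized count above the filter of 10. The cells were 4 primary lines of pancreatic ductal adenocarcinoma (PDAC), numbered #1, #3, #5 and #10, and every line carried the alleles Ptf1awt/Cre and Trp53loxP/loxP, among others, in treated and control samples alike. In this model a Cre recombinase expressed from the Ptf1a locus, which is active in the pancreatic lineage, deletes Trp53. The MEKi libraries came from cells kept for 48 h with trametinib at the IC50 of the line, a dose that therefore can differ between lines and whose value is not given in the sources used here. The DMSO libraries came from cells of the same lines with the solvent alone, so each line has 1 library per treatment. Whether the lines came from separate mice, and the age of the mice, are not given in the sources used here, and the p-values measure only the spread between these 4 lines.

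All KLFs share a block of zinc fingers at their carboxyl terminus that binds GC-rich and CACCC-type DNA, while the rest of the protein differs and decides which cofactors are recruited. Klf2, Klf4, Klf5, Klf6 and Klf7 are mostly known as activators. Klf3 is a repressor that binds the corepressor CtBP, and Klf9, Klf10, Klf11 and Klf13 carry a short helix that binds the corepressor Sin3a. In epithelia, Klf4 is known for cell cycle exit and differentiation and Klf5 for the growth of proliferating crypt cells. MEK, the kinase that trametinib blocks, activates ERK, which controls many immediate early and feedback genes.

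The stretches of DNA upstream of the start site were searched for letters that match known kinds of binding sites. RefSeq promoters on GRCm38.p6, each of 300 bases, were found for 8 of the 10 genes, not for Klf5 or Klf10. The motifs marked in capitals were searched on both strands: TGACG, the core of the cAMP response element and written CGTCA on the other strand, CACGTG, an E-box, TGANTCA, the site of AP-1 factors, and the MEF2 site, which binds the factors that the kinase ERK5 activates. Shown are the bases upstream of the annotated exons of Klf2 and Klf4, which had their lowest line values in the same line, and of Klf9 and Klf11, which rose in each line. Klf2 is at chr8:72318812-72319032 on the plus strand, Klf4 at chr4:55532476-55532725 on the minus strand, Klf9 at chr19:23140976-23141225 and Klf11 at chr12:24651121-24651273 on the plus strand.
Klf2: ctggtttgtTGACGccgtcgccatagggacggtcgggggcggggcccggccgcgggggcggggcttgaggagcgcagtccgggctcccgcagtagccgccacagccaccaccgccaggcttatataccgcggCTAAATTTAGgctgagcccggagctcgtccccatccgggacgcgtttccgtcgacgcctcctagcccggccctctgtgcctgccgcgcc
Klf4: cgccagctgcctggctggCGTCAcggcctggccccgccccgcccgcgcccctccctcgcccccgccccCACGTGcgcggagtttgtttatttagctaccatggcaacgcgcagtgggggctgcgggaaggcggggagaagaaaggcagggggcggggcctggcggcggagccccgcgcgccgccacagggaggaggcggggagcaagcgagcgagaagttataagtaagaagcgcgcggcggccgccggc
Klf9: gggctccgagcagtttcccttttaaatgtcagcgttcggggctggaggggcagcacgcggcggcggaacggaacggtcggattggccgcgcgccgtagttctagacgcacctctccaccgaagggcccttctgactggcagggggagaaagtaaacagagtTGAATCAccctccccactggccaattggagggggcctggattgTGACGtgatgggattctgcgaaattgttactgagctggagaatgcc
Klf11: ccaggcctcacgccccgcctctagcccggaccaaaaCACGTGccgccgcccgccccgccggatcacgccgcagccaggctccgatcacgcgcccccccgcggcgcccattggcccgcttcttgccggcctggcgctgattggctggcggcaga
The MEF2 site occurred in the promoter of Klf2 alone of the 8, at position -118 from the start, and in 3.19% of all 32851 promoters of the same length. Klf9 was the only 1 of the 8 with TGANTCA, at position -89, and 7.81% of all promoters held it. CACGTG was found in Klf4, Klf6 and Klf11, against 7.15% of all promoters, and TGACG in 5 of the 8, against 20.8%. The GC box GGGCGG, which KLFs and Sp factors themselves can bind, was in 7 of the 8, Klf9 being the exception, and in 35.7% of all promoters. CACCC, the other kind of KLF site, was in 5 of the 8 and 57.5% of all, and in Klf9 it overlaps the TGANTCA match. CCAAT was in 4 of the 8, against 37.4%, and the FOXO site GTAAACA in Klf9 alone, against 3.65%. The full TGACGTCA, which contains TGACG, the ETS site CCGGAAG, the CArG box and TATAAA were in none of the 8, against 1.79, 8.86, 1.63 and 13.6% of all promoters. The promoters of these genes are rich in G and C, at 58.3 to 77.7% against a median of 52.7%, and GC-rich letters are more frequent in such DNA. A match describes the letters only and is not evidence of binding.

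With trametinib the KLFs moved in different directions. Klf7, Klf9, Klf11 and Klf13 were higher with trametinib, Klf5 and Klf10 were lower, and Klf2, Klf3, Klf4 and Klf6 did not pass the test. The test was limma on log2(normalized count + 1) with the line as a block, and a gene was called at an adjusted p under 0.05 after Benjamini-Hochberg adjustment over 15888 genes. Of all genes tested, 53.0% were called, 27.3% as higher and 25.6% as lower, so that 6 calls among 10 genes is a share near the background. The median log2 fold change of the 10 was 0.15, against 0.07 for all genes. Of the 10, 8 moved the same way in all 4 lines, and 65.6% of all genes did so. Upward in every line were 5 members, against 34.7% of all genes, and downward 3, against 30.9%. The 4 MEKi values lay wholly above the 4 DMSO values for Klf7 and Klf11 and wholly below them for Klf4 and Klf5, while 31.3% of all genes had groups that did not overlap. Fold changes are on the log2(value + 1) scale, which understates the change of low genes. In whole cultures, less RNA per cell and fewer cells that express a gene cannot be told apart.

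**Figure D1:**
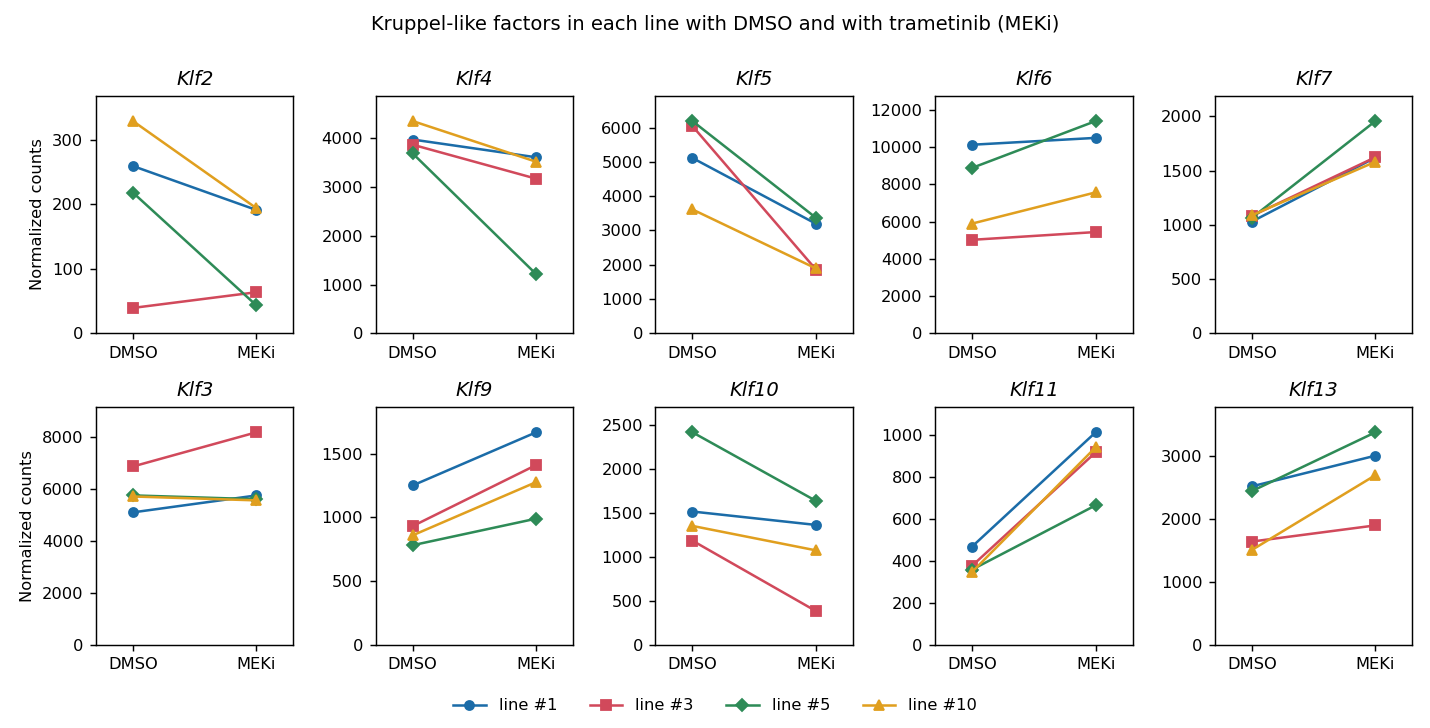
Normalized counts (vertical axis, a scale of its own in each panel, from 0) of the 10 KLF genes with DMSO and with trametinib (MEKi). Each line of the plot joins the 2 libraries of 1 cell line. Klf11 and Klf7 rise in all 4 lines, Klf5 falls in all 4, and Klf2 is lower in 3 lines and goes from 39.4 to 63.8 in line #3.

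Among the activators, Klf5 had the largest fall of the 10 genes. Klf5 (chromosome 14, 99298691 to 99315036, plus strand, GRCm38) had control values of 5115, 6047, 6193 and 3614 normalized counts in lines #1, #3, #5 and #10, and treated values of 3197, 1861, 3370 and 1893. The highest treated value, in line #5, was below the lowest control value, in line #10, and line #3 lost most. Its log2 fold change was -1.05 (SE 0.17, 95% interval -1.45 to -0.65, adjusted p = 0.00246 in limma), with -0.68, -1.70, -0.88 and -0.93 in the single lines. The call held with each line left out in turn, with values from -1.17 to -0.83.

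Klf4, a factor of differentiated epithelium, was lower in 4 of 4 lines and yet was not called. Klf4 (chromosome 4, 55527143 to 55532466, minus strand) had 3974, 3867, 3688 and 4352 normalized counts in the control libraries. With trametinib the counts were 3609, 3170, 1212 and 3518, with line #5 far below its control and the other 3 lines just below theirs. The log2 fold change was -0.58 (SE 0.24, 95% interval -1.16 to -0.01) with an adjusted p of 0.0796 in limma, and the adjusted p was at least 0.0659 in all 15 alternative settings. The line values were -0.14, -0.29, -1.60 and -0.31, and without line #5 the estimate was -0.24 (adjusted p = 0.113 in limma).

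Klf2, best known from quiescent T cells and from endothelium under flow, was the lowest of the activators and the most uneven. In the controls Klf2 (chromosome 8, 72319033 to 72321656, plus strand) had 260, 39.4, 218 and 330 normalized counts in lines #1, #3, #5 and #10. The treated libraries had 191, 63.8, 43.3 and 194, which is lower in 3 lines and higher in line #3, the line that started lowest. These values rest on about 38 to 344 reads per library, as estimated from the step between low values. The log2 fold change was -0.71 (SE 0.44, 95% interval -1.76 to 0.35, adjusted p = 0.218 in limma). Klf2 was thus not called, and it was called lower in 1 of 15 alternatives, the fit without line #3, at -1.17 (adjusted p = 0.0358 in limma). Without line #5 the value was -0.17 (adjusted p = 0.694 in limma). The endothelial receptor Tek was higher with trametinib in all 4 lines, with at most 21.5 normalized counts in a control and 153, 805, 30.5 and 13.5 in the treated libraries, also in the 3 lines where Klf2 was lower. Pecam1 had 15.6, 6.50, 14.1 and 7.19 normalized counts in the controls and 12.7, 12.3, 6.95 and 14.1 in the treated libraries, higher in lines #3 and #10 and lower in the other 2. Tie1, within 1.05 to 10.7, was above its control in lines #1 and #3 and below it in the others. Kdr was above its control in each line, by little in line #10, with 7.64 to 63.3 in the treated libraries. Cdh5 ranged from 0 to 3.50 in the controls and from 0 to 17.5 with trametinib, and Emcn was at most 1.02. Their part in the Klf2 value was not tested.

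Klf6, an early response gene and reported tumor suppressor, was the most abundant of the 10 by mean level per length. With DMSO, Klf4 was above it in lines #3 and #10, and Klf5 in line #3. Klf6 (chromosome 13, 5861482 to 5870394, plus strand) had 10121, 5018, 8880 and 5890 normalized counts with DMSO, and 10489, 5434, 11392 and 7564 after trametinib. All 4 lines were higher, by little, and the differences between lines were larger than those between treatments. Its log2 fold change of 0.22 (SE 0.092, 95% interval 0.00 to 0.44) missed the threshold at an adjusted p of 0.0826 in limma. It passed without line #3 at 0.26 (adjusted p = 0.0453), and with libraries rescaled to equal totals at 0.35 (adjusted p = 0.0202) and quantile normalization at 0.38 (adjusted p = 0.0152), all in limma.

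Klf7, known for its role in axon growth, rose in all 4 lines from nearly equal levels. Klf7 (chromosome 1, 64029447 to 64122282, minus strand) had 1031, 1083, 1066 and 1088 normalized counts in the controls, with a ratio of highest to lowest of 1.06, the smallest of the 10 genes. With trametinib it had 1620, 1624, 1957 and 1582, so that every treated library lay above every control and line #5 above the other 3. The log2 fold change was 0.66 (SE 0.096, 95% interval 0.43 to 0.89, adjusted p = 0.00175 in limma). Exons of the gene overlap 3196 bases of Gm26649 on the opposite strand. The library kit keeps the strand, but whether the strand was used in counting is not stated, so reads of the 2 genes may not be told apart.

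Identical runs of bases between these genes were short. The longest, of 36 bases, was a repeat of TG outside the coding part of Klf3 and Klf13. Klf6 and Klf7 share a run of 26 bases, and Klf5 and Klf9 a run of 24 bases, in the part that codes for the zinc fingers. They are shown with 12 flanking bases on either side and the shared bases in capitals, because Klf5 and Klf9 moved in opposite directions.
Klf5, coding bases 1216 to 1239 of 1338: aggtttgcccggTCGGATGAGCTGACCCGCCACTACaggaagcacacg
Klf9, coding bases 559 to 582 of 732: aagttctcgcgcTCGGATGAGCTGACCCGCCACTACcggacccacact
Klf6, coding bases 901 to 926 of 954: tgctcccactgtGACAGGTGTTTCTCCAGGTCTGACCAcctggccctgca
Klf7, coding bases 850 to 875 of 903: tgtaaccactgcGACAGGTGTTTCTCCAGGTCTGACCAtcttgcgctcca
The longest identical run of a pair had a median of 15 bases over the 45 pairs of members. Of the words of 31 bases in the transcripts of a member, few occurred in another gene. In other KLF or Sp genes they numbered 10 for Klf3, 4 for Klf13 and 0 for the other 8 members. Klf4 had the largest share, 61 of 3047 words, of which 58 lay in Gm48640.

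Klf3, the CtBP-binding repressor, was the gene that moved least. Klf3 (chromosome 5, 64803388 to 64832901, plus strand) had 5103, 6876, 5758 and 5716 normalized counts with DMSO and 5757, 8196, 5610 and 5566 with trametinib. Lines #1 and #3 were higher and lines #5 and #10 slightly lower, and line #3 was the highest in both treatments. The log2 fold change was 0.09 (SE 0.089, adjusted p = 0.435 in limma), with a 95% interval of -0.12 to 0.30. Klf3 was at 0.03 without line #3, 0.22 with libraries rescaled to equal totals and 0.24 with quantile normalization. In none of the 15 alternatives was Klf3 called. Its exons overlap 404 bases of Gm20033 on the opposite strand.

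The Sin3-binding members parted in direction, with Klf9, Klf11 and Klf13 higher and Klf10 lower. Klf11, which binds GC-rich sites of the insulin gene and is induced by TGF-β, had the largest rise of the 10. Klf11 (chromosome 12, 24651274 to 24662789, plus strand) had 467, 376, 358 and 346 normalized counts in the controls and 1012, 916, 664 and 940 in the treated libraries. The lowest treated value, in line #5, was above the highest control value, in line #1. In the fit, the log2 fold change came to 1.18 (SE 0.13, 95% interval 0.88 to 1.48), a 2.27-fold rise with an adjusted p of 0.000691 in limma, and the lines ranged from 0.89 in line #5 to 1.44 in line #10. It was called in 14 of 15 alternatives, all but the one that asked for more than a 2-fold change.

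Klf9, a gene that glucocorticoids and thyroid hormone induce, rose by less but as evenly as any member. Klf9 (chromosome 19, 23141226 to 23168134, plus strand) had 1251, 931, 781 and 859 normalized counts in the controls, and the treated libraries of the same lines had 1669, 1411, 990 and 1277. Every line was higher than its own control, although the groups overlapped because line #1 began above the treated level of line #5. As a log2 fold change this was 0.48 (SE 0.095, 95% interval 0.26 to 0.71, adjusted p = 0.00559 in limma), and its SD over the lines, 0.12, was the smallest of the 10. Without the block for the line, which sets each treated library against its own control, Klf9 was not called (adjusted p = 0.114 in limma).

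Klf13, known as an activator of the chemokine gene Ccl5 in T cells, was higher in 4 of 4 lines. Klf13 (chromosome 7, 63886351 to 63938915, minus strand) had 2513, 1636, 2438 and 1503 normalized counts with DMSO and 3000, 1892, 3372 and 2690 with trametinib. Line #10 gained most and line #3 least, and the groups overlapped. Limma estimated a log2 fold change of 0.44 (SE 0.12, 95% interval 0.15 to 0.74, adjusted p = 0.0212). The call was lost without line #5 (0.44, adjusted p = 0.0729) and without line #10 (0.31, adjusted p = 0.0805), and without the block (adjusted p = 0.193), all in limma.

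Klf10, an early gene of the TGF-β response, was the 1 Sin3-binding member that was lower. Klf10 (chromosome 15, 38291463 to 38300706, minus strand) had 1511, 1180, 2412 and 1348 normalized counts with DMSO and 1359, 380, 1632 and 1070 with trametinib. All 4 lines were lower, line #3 by far the most, and line #5 with trametinib stayed above 3 of the 4 controls. Fitted over the lines, the log2 fold change was -0.67 (SE 0.24, 95% interval -1.23 to -0.11), just past the threshold at an adjusted p of 0.0497 in limma. The call held in 5 of 15 alternatives. It was lost without line #5 (-0.71, adjusted p = 0.108) and without line #10 (-0.78, adjusted p = 0.0688), and without line #3 it was kept at a smaller size, -0.35 (adjusted p = 0.0290), all in limma.

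**Figure D2:**
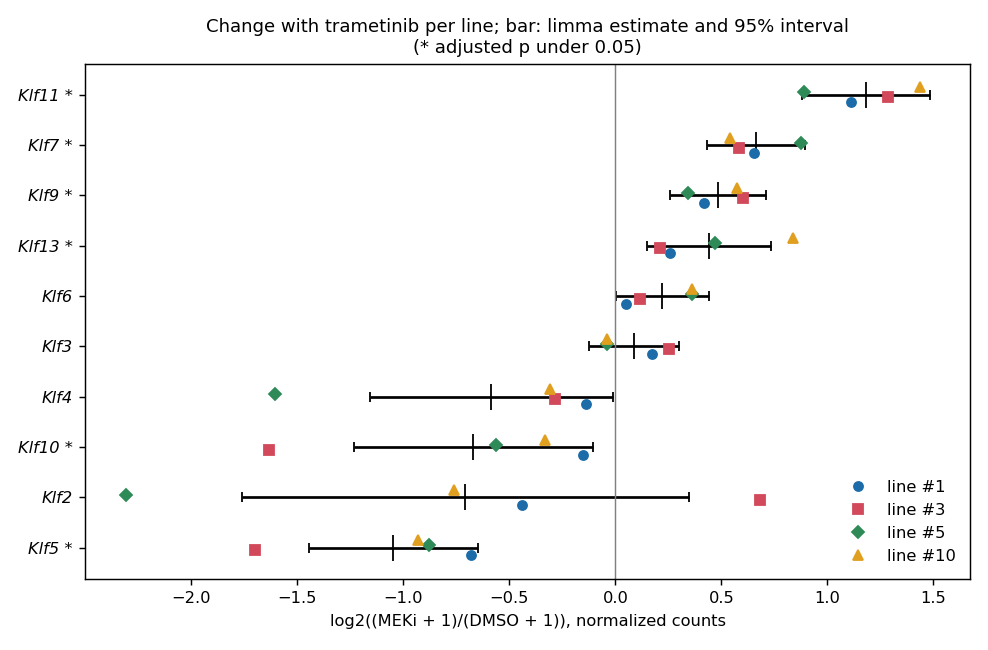
Change of each KLF gene as log2 fold change, MEKi against DMSO (horizontal axis), with 1 point per line and a bar for the limma estimate with its 95% interval. Genes with an asterisk had an adjusted p under 0.05. The points of Klf9 and Klf7 lie close together, while 1 line stands off for Klf4 (line #5, -1.60), Klf10 (line #3, -1.63) and Klf5 (line #3, -1.70).

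The line values spread most for Klf2, Klf4, Klf10 and Klf5. Line #5 had the lowest line values of Klf2 (-2.31) and Klf4 (-1.60), and line #3 those of Klf5 (-1.70) and Klf10 (-1.63). Line #10 had the highest values of Klf11 (1.44) and Klf13 (0.84). The SD of the log2 fold change over the lines was above that of 94.0% of genes with a like level for Klf2, 97.3% for Klf4, 95.7% for Klf10 and 90.0% for Klf5. For the other 6 members this share was 16.9 to 71.9%, with Klf9 the lowest and Klf13 the highest. These shares are descriptions, without a test.

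The untreated levels differed more between genes than between lines. Divided by the exonic length of GENCODE M21, Klf6 had the highest mean with DMSO at 1703 ± 550 normalized counts per kb (SD, n = 4), followed by Klf4 at 1302 ± 92.0, Klf5 at 1008 ± 228 and Klf3 at 522 ± 65.7. Klf10 (386 ± 132), Klf13 (269 ± 70.0) and Klf9 (198 ± 42.8) came next, and Klf7 (131 ± 3.21), Klf2 (115 ± 67.0) and Klf11 (89.1 ± 12.7) were the lowest. Of the neighbors in this order, only Klf4 and Klf5, Klf5 and Klf3, and Klf9 and Klf7 had ranges over the lines that did not overlap. By mean with trametinib, Klf6 stayed the highest at 1986 per kb and Klf4 next at 944, whereas Klf5, at 496, was below Klf3, at 559. The single lines differed, with Klf5 above Klf3 in lines #1 and #5 and below it in lines #3 and #10. In line #5 Klf4 was below Klf5, Klf3 and Klf13. Klf11, at 203, came close to Klf7, at 209, and Klf2 was the lowest at 66.7. The length used is that of all annotated exons of a gene joined, 1.85 kb for Klf2 to 11.2 kb for Klf3, and a gene read mostly as a shorter transcript would score higher per kb of that transcript.

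**Figure D3:**
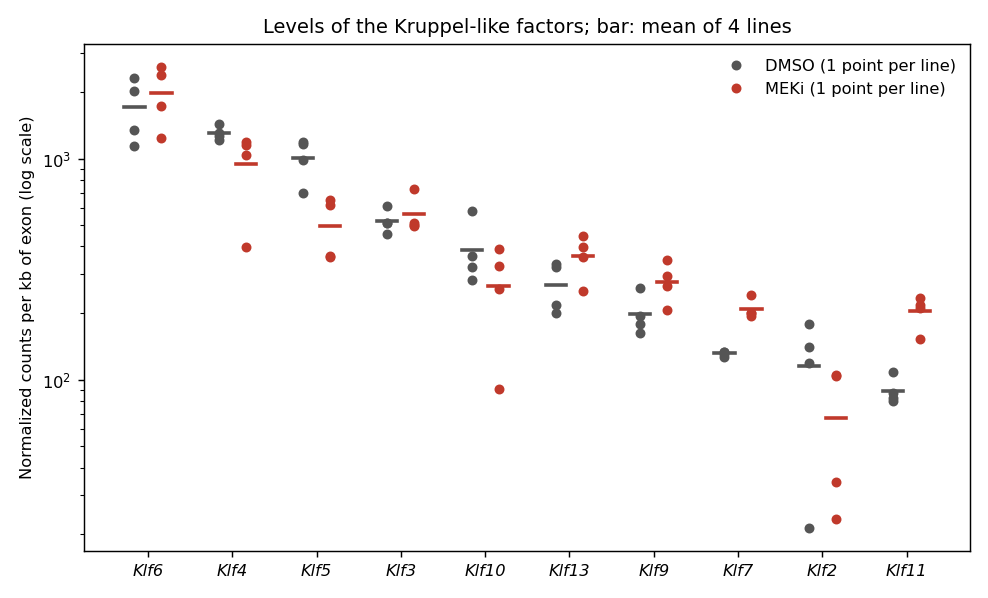
Levels of the 10 KLF genes as normalized counts per kb of exon (vertical axis, log scale), in the order of their DMSO means. Each point is 1 line and each bar the mean of 4 lines. Klf6 has the highest mean with either treatment, Klf5 drops from 1008 to 496 and Klf11 rises from 89.1 to 203.

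Over 17 Klf genes the summed level per kb was 7058, 5561, 6967 and 5613 in the control libraries of lines #1, #3, #5 and #10, and 6687, 4609, 5919 and 5418 in the treated ones. It was thus somewhat lower in every line, although with libraries rescaled to equal totals the treated level was 1.02, 0.902, 0.943 and 1.06 of the control, higher in lines #1 and #10. The 10 members held at most 92.1% of it in a control library and at least 94.3% in a treated one, and most of the rest was Klf16, at a mean of 8.89 and 4.68%. By mean share of the family, Klf6 went from 26.5 to 34.6%, Klf4 from 21.0 to 17.1%, Klf5 from 16.1 to 8.66% and Klf11 from 1.42 to 3.66%. The share of Klf4 fell most in line #5, from 17.4 to 6.72%. It went from 18.5 to 17.7, 22.8 to 22.6 and 25.4 to 21.3% in lines #1, #3 and #10. These are shares of RNA and say nothing of the amount of protein.

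The other KLFs and the related Sp factors, which bind the same GC boxes, were measured above the filter in 8 of 16 cases. Of these 8, limma called 1 as higher, 4 as lower and 3 not at all, against 27.3% higher and 25.6% lower over all genes, and 3 of the 4 lower calls held with each line left out. The median log2 fold change was -0.29, against 0.07 for all genes. Klf16, also a Sin3-binding repressor, fell from 1751, 1145, 1671 and 1443 normalized counts to 945, 382, 818 and 746 in lines #1, #3, #5 and #10. No treated value reached a control value, and the log2 fold change was -1.11 (SE 0.14, adjusted p = 0.00105 in limma). Sp1, the broadly expressed founder of the Sp group, was lower in all 4 lines, and limma put its change at -0.62 on the log2 scale (adjusted p = 0.00122). Sp2 changed by -0.66 (adjusted p = 0.00198) and Sp3 by -0.25 (adjusted p = 0.0456), both in limma, and Sp3 was not called without line #1, #5 or #10, where its values were -0.28 to -0.19 and the adjusted p 0.085 to 0.181.

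Sp8, a factor of limb and brain development, was the 1 relative that was higher, with control values of 20.7, 0.842, 20.1 and 45.0 normalized counts and treated values of 28.5, 24.2, 93.6 and 128. The value of line #3 with DMSO is that of about 1 read. The fitted log2 fold change was 1.97 (adjusted p = 0.0193 in limma), a value that depends on the pseudocount in that line, and the call was lost without line #5 (1.90, adjusted p = 0.0684 in limma). Sp4, Klf1 and Klf8 were not called, at 0.00, -0.16 and -0.32. Of the 8 relatives below the filter, Klf12 ranged from 0 to 3.73 normalized counts, Klf14 from 0 to 32.6, Klf15 from 0 to 13.9, Klf17 from 0 to 0.962, Sp5 from 0 to 4.65, Sp6 from 0.779 to 9.40 and Sp9 from 0 to 3.93, and Sp7 was listed at 0 in all 8 libraries. Klf14 reached the top of its range only in line #1, at 32.6 with DMSO and 25.5 with trametinib. Klf15 had 2.73, 0, 5.81 and 0 normalized counts with DMSO and 12.8, 2.66, 13.9 and 3.48 with trametinib, and the treated values of lines #3 and #10 are those of about 3 to 4 reads.

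**Figure D4:**
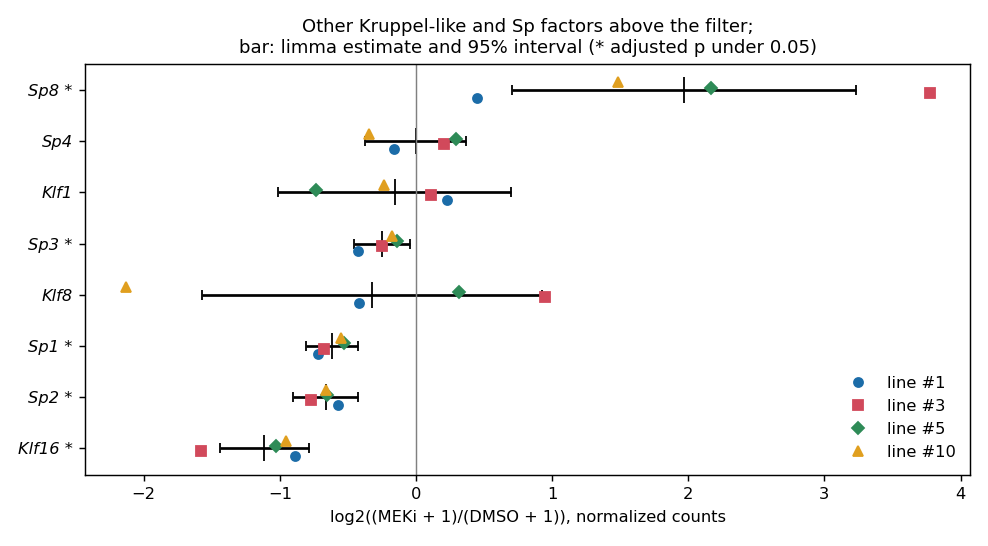
Change as log2 fold change, MEKi against DMSO (horizontal axis), of the 8 other KLF and Sp genes above the filter, with 1 point per line and a bar for the limma estimate with its 95% interval. An asterisk marks an adjusted p under 0.05. Klf16, Sp2 and Sp1 lie below 0 in every line, and Sp8 spreads widely, with line #3 furthest out.

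The cofactors that KLFs recruit are a list of 11 corepressors and coactivators, of which 1 was higher, 3 were lower and 7 were not called. Their median was -0.09, against 0.07 for all genes, and 36.4% of them were called, against 53.0%. Kat2b, an acetyltransferase that acts with KLFs on histones, rose from 1152, 900, 735 and 741 normalized counts to 1872, 2954, 1534 and 1611, which limma put at 1.15 on the log2 scale (SE 0.16, adjusted p = 0.00163). Ctbp1, the corepressor that Klf3 binds, fell by 0.48 on the log2 scale (adjusted p = 0.00686 in limma), whereas its paralog Ctbp2 was at 0.11 and not called. Hdac3, a histone deacetylase, was at -0.39 (adjusted p = 0.00531 in limma). Sin3a, the partner of Klf9, Klf10, Klf11 and Klf13, was at -0.36 (adjusted p = 0.0274 in limma), and its call was lost when line #1, #3 or #5 was left out (values of -0.41 to -0.29, adjusted p 0.0501 to 0.115).

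Several KLFs are short-lived proteins that are marked by ubiquitin ligases, and 3 of 8 such ligases were higher and 1 lower, with a median of 0.18. Over all genes 53.0% were called, so 4 of 8 is a share near the background. Fbxo32, an F-box protein known from muscle atrophy, was the largest of these changes. It had 150, 96.9, 93.1 and 132 normalized counts with DMSO and 1059, 741, 925 and 808 with trametinib, so that the groups lay far apart. Its log2 fold change was 2.91 (SE 0.15, adjusted p = 9.95e-05 in limma). Btrc was at 0.43 (adjusted p = 0.0149) and Smurf2 at 0.29 (adjusted p = 0.0276), and Wwp1, which acts on Klf2 and Klf5, was at -0.32 (adjusted p = 0.0435), all in limma. Of these 4 calls only that of Fbxo32 held with each line left out. Wwp1 was called in none of the 4 fits that left out a line (-0.38 to -0.24, adjusted p 0.0711 to 0.142), and Btrc and Smurf2 each lost the call without line #5 or #10 (0.28 to 0.46, adjusted p 0.0525 to 0.11).

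The kinase ERK5 and the MEF2 factors act upstream of Klf2 and Klf4 in endothelium. None of the 6 genes of this axis was called in limma, against 53.0% of all genes, and 0 had an unadjusted p under 0.05, although 2 were called as higher with libraries rescaled to equal totals. Mapk7, which encodes ERK5, was at -0.14 (SE 0.090), and Map2k5, its activating kinase, at 0.21 (SE 0.097, adjusted p = 0.110 in limma). Both were chosen for mention with their values known. The list ran from -0.14 to 0.42, with Mef2c at the top and at 4.16 to 74.4 normalized counts.

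Genes described as targets of KLFs moved in both directions. Among the 14 measured above the filter, limma called 7 as higher and 5 as lower, or 85.7% of them, against 53.0% of all genes. The median was 0.15, against 0.07 for all genes, and 8 of these 12 calls held with each line left out. Tagln, a smooth muscle gene that Klf4 is known to repress, rose from 34.1, 24.2, 13.7 and 14.9 normalized counts to 8880, 112, 11538 and 182 in lines #1, #3, #5 and #10. Lines #1 and #5 thus ended far above the other 2, and the log2 fold change was 5.82 (SE 1.19, adjusted p = 0.00659 in limma). Alpi, the intestinal alkaline phosphatase that Klf4 activates in gut cells, went from 72.2, 197, 75.8 and 206 to 3.91, 14.1, 4.01 and 10.6, or -3.93 on the log2 scale (SE 0.25, adjusted p = 0.000199 in limma). Pdgfa, a growth factor gene that Klf5 activates in vessels, was higher by 2.25 (SE 0.22, adjusted p = 0.00054 in limma). Ccnd1, Birc5 and Ccnb1, genes of the cell cycle and of survival that are tied to Klf4 and Klf5, were at -2.03, -1.77 and -1.52, each with an adjusted p of 0.00363 or less in limma. Ccnd1 is also on the list of genes controlled by ERK that checked the treatment, so it is counted in both lists. Ccl5, the target of Klf13, was below the filter, at 0.775 to 5.73 normalized counts. Klf4 itself changed by -0.14, -0.29, -1.60 and -0.31 on the log2 scale in lines #1, #3, #5 and #10. The part of the KLFs in the values of these target genes was not tested.

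Genes of the glucocorticoid response and the circadian clock, which often move with Klf9, were called in both directions. Of 10 tested, 4 were higher and 2 lower, with a median of 0.02, and 3 of the 6 calls held with each line left out. With 53.0% of all genes called, 6 of 10 is a share near the background. Sgk1, a kinase induced by glucocorticoids, was higher at 1.86 (adjusted p = 0.000549 in limma), and Fkbp5, a chaperone gene that the same receptor induces, was lower at -1.29 (adjusted p = 0.00366 in limma). Nr1d1, the clock repressor REV-ERBα, was at -0.85 (adjusted p = 0.00423 in limma). Tsc22d3, Dbp and Per1 were at 0.84, 0.62 and 0.36, and each was called in only 1 of the 4 fits that left out a line.

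By pattern over the 8 libraries, the genes most like Klf11 were Hist1h4h (Pearson r of log2 values 0.989), Atp6v0d1 (0.989) and D130007C19Rik (0.986). Those most like Klf5 were Rplp0 (0.991), Ssr1 (0.987) and Eed (0.986). The 8 libraries share 4 lines and 2 treatments, so any gene that changes evenly with trametinib scores high, and the values only describe the likeness.

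**Figure D5:**
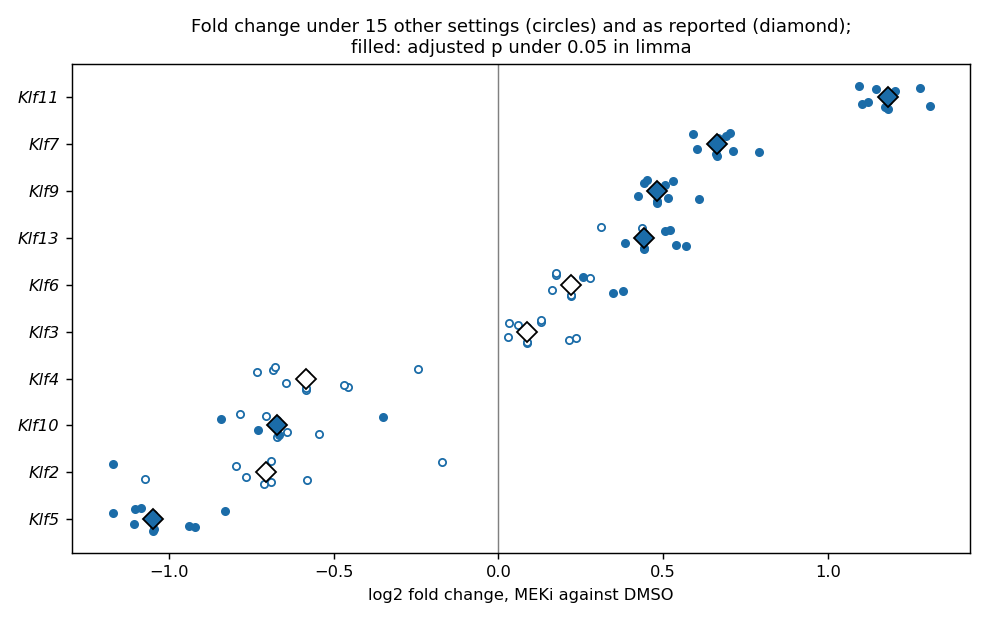
Log2 fold change of each KLF gene (horizontal axis) as reported (diamond) and under 15 other settings of the analysis (circles), filled where the adjusted p in limma was under 0.05. No gene changes side of 0. Klf11, Klf7 and Klf5 stay filled in all but the setting that asks for more than a 2-fold change, and Klf10 and Klf13 lose the call in several.

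The libraries held 30680091 to 36385719 normalized counts, from about 29300000 to 45900000 reads as estimated from the step between low values, and 3 reads correspond to 2.33 to 3.72 normalized counts. Genes that ERK controls checked the treatment, and all 10 on the list were lower, against 25.6% of all genes, with a median of -2.27 against 0.07 and Dusp6, a phosphatase induced by ERK, at -2.51. The summed level of 7 epithelial markers was 221215 to 348774 with DMSO and 112485 to 220925 with trametinib, lowest in line #3, and 5 of the 6 tested were lower, against 25.6% of all genes, while Cdh1 was not called. Of these 5 calls, 2 held with each line left out. Epcam was listed at 0 in lines #1, #5 and #10 and stood at 10.4 and 3.75 in line #3, so this marker does not bear out the epithelial label and the keratins and Cdh1 do. Sums of markers of other cells were low, at 94.9 to 366 with DMSO and 440 to 1258 with trametinib for 8 fibroblast markers, and 35.2 to 63.7 and 63.7 to 837 for 6 endothelial markers. Col1a1 alone, at 30.1 to 130 with DMSO and 360 to 1110 with trametinib, made up most of each treated fibroblast sum. Of the leukocyte markers, Cd68 stood at 135 to 188 with DMSO and 130 to 228 with trametinib, Csf1r at 1.05 to 46.9 and 14.2 to 340, Itgam at 3.83 to 25.8 and 6.56 to 27.5, and Ptprc at 7.31 to 17.2 and 4.05 to 16.6. Lum was listed at 0 in all 8 libraries, and Cd3e was below 10 throughout, while Col1a1, Tek and Csf1r were higher with trametinib. Of the 5 fibroblast markers tested, 1 was called higher, Col1a1, and 4 were not called. Of the endothelial markers tested, 1 of 3 was called higher, Tek, and of the leukocyte markers 1 of 4, Csf1r. Over all genes 27.3% were called higher. Dcn was lower in lines #1, #3 and #5 and higher in line #10. In line #5 Pdgfra went from 105 to 19.6 and Col3a1 from 97.2 to 11.7, while both were higher in lines #1, #3 and #10. The part of all these markers in the KLF values was not tested.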

How the data were processed

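RNA was extracted with the Maxwell RSC simplyRNA Cells Kit, and the authors prepared TruSeq Stranded mRNA libraries. The submitters' processing notes name CASAVA 2.17, Salmon 0.12, DESeq2 1.18 and mm10, without saying what each did. The authors deposited 1 table of normalized counts per gene, a signal scaled between libraries by a method not given in the sources used here. Of its low values, 57.3 to 68.1% per library lay within 0.05 of a whole multiple of the value of 1 read. The rest did not come out as whole reads, so no count test was run.

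Values were tested as log2(value + 1) in limma 3.58.1 (R 4.3.3) with lmFit, eBayes with a trend and the line as a block. The minimum mean was 10, with Benjamini-Hochberg adjustment over 15888 genes. The fit was also run on simulated data, in which each changed gene changed alike in every line. That run does not cover changes that differ between lines. The numbers in the sample labels are those of the lines, so same-numbered libraries are paired. An allele and a marker are not reported here. Deviations from the treatment means correlated at 0.66 (0.63 to 0.72) across genes within a line and at -0.22 on average between lines. Positions and exonic lengths are those of GENCODE M21 on GRCm38, promoters those of RefSeq. Plots were drawn with matplotlib 3.10.9, and pandas 2.3.3 and numpy 2.4.6 (Python 3.11.15) handled tables.

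The members, gene lists and tests were chosen with earlier results of these data known. All 10 members were to be named, up to 6 called genes per list with the largest absolute change, the relatives below the filter, and the 3 genes most like the highest and the lowest member. The alternatives were pseudocounts of 0.1 and 5, equal library totals, quantile normalization, centring on the median, no filter, a filter at 50, no block, eBayes without trend or with robust estimation, a minimum change of 2-fold and leaving out each line.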

Additional observations from a re-analysis of the deposited data

Results flagged for a closer look

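Of 30 groups of 4 values (the DMSO values, the MEKi values and the log2 fold changes of the 10 KLF genes), 3 held a value far from the rest by Dixon's test, where chance gives about 1.5. Klf3 with trametinib stood at 8196 normalized counts in line #3, against 5566 to 5757 in the other lines. The log2 fold change of Klf4 was -1.60 in line #5, against -0.31 to -0.14 in the others. Klf7 with trametinib stood at 1957 normalized counts in line #5, against 1582 to 1624 in the others.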

How the results depend on the processing

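Of 150 fold changes of the members under the 15 alternatives, 126 stayed on the same side of the threshold, 20 lost the call, 4 gained it and 0 changed sign. Without the block that pairs the libraries of a line, limma called 2205 genes higher and 2347 lower instead of 4341 and 4075, and 2 members higher and 1 lower, with Klf9 at 0.48 (adjusted p = 0.114), Klf10 at -0.67 (adjusted p = 0.283) and Klf13 at 0.44 (adjusted p = 0.193) no longer called. With a minimum change of 2-fold it called 557 genes higher and 176 lower and 0 members in either direction (Klf5 -1.05, Klf7 0.66, Klf9 0.48, Klf10 -0.67, Klf11 1.18 and Klf13 0.44, the lowest p being 0.0993 unadjusted and 0.708 adjusted, for Klf11).

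Members called lower came to 1 with a pseudocount of 0.1, equal totals, quantile normalization, no filter, eBayes without trend and eBayes with robust estimation, in each case because Klf10 was lost (-0.67, -0.54, -0.64, -0.67, -0.67 and -0.67). Klf13 was also lost with eBayes without trend, at 0.44. Klf6 was gained with equal totals (0.35) and quantile normalization (0.38). Leaving out 1 line gave 3383 to 4195 genes called higher and 3302 to 4007 lower, 3 to 5 members higher and 1 to 3 lower, and fold changes of -1.17 to -0.17 for Klf2, 0.18 to 0.28 for Klf6, -0.84 to -0.35 for Klf10 and 0.31 to 0.52 for Klf13. The cause of these shifts was not tested.

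Equal totals moved the median of all genes by 0.13 and quantile normalization by -0.10 on the log2 scale, and the share of calls that were higher was 61.9 and 47.2% instead of 51.6%. Of 210 counts of called list genes, 37 moved by over 1.5 times. With 4 lines per group, small changes may go uncalled, and a value near 3 reads cannot carry a fold change.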
